A study of Homo sapiens with 20 samples.

Results

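The regions described here are the BRG1 ChIP-seq peaks of T47D cells that were listed before hormone and had no counterpart after 30 min of it. They were chosen by the measured peak calls, as the peaks of the 0 min list without a single base of overlap with any peak of the 30 min list, and 1620 of the 2288 peaks at 0 min met that rule (70.8%, 95% Wilson interval 68.9 to 72.6%). The other 668 peaks were kept, and 5496 of the 6180 peaks at 30 min had no 0 min peak beneath them. T47D is an established line of luminal breast cancer cells that carry oestrogen and progesterone receptors. Cells stood in hormone-stripped and then serum-free medium and were given 10 nM of the synthetic progestin R5020 for 30 min (ChIP-seq) or 6 h (RNA-seq). BRG1 was mapped in 1 library without siRNA at each time, whereas RNA was measured in 2 libraries for each of si-control and si-BRG1 at 0 h and 6 h, and in 1 library without siRNA at each of these times. The 8 libraries of si-CBX3 and si-FOXA1 cells at 0 h and 6 h, depleted of the heterochromatin protein HP1γ or of the pioneer factor FOXA1, were in the same fit. By its title the series asks whether BRG1 takes part in the repression of genes by hormone.

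BRG1, encoded by SMARCA4, is one of the alternative ATPases of the SWI/SNF (BAF) complexes, which use ATP to slide or evict nucleosomes. It binds no particular DNA sequence and is brought to promoters and enhancers by transcription factors, among them steroid receptors, and in breast cancer cells it serves both activation and repression by the progesterone receptor. A ligand-bound receptor moves remodellers to its own sites within minutes, so BRG1 maps before and shortly after hormone can differ at the same locus.

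The rule uses the peak lists, so the number, score, width and place of these peaks are given as a description, with no test. With 1 ChIP library per time, a change in BRG1 binding and a difference between the libraries in depth or enrichment cannot be told apart. RNA values were not used by the rule. Coordinates are hg19 and 1-based unless stated, RNA levels are CPM (library-scaled counts, with TMM), and changes are log2 differences with their standard error (SE) from edgeR with n = 2 libraries per group. A gene is said to have risen or fallen at a Benjamini-Hochberg adjusted p below 0.05 over all 18806 genes tested.

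Of these peaks, 49 covered the annotated 5′ end of a gene. To show what such promoters look like, the 250 bases before the RefSeq start (GRCh38.p14) are printed for 5 of the genes on which the RNA results turn: PIK3R1, which rose with hormone (chr5:68215506-68215755, plus strand), ELK3, which fell (chr12:96194125-96194374, plus strand), TNRC18 and DNAJC12, which were higher and lower after si-BRG1 (chr7:5423835-5424084 and chr10:67838189-67838438, both minus strand), and ZBTB21, whose hormone response differed between si-BRG1 and si-control (chr21:42010361-42010610, minus strand). Sequences run 5′ to 3′ along the gene, and capitals mark matches on either strand to 8 short motifs: ACANNNTGT (the paired hexamer ends of the hormone response element bound by progesterone and glucocorticoid receptors), TGTTTAC (bound by FOXA factors), AGATAA (bound by GATA factors), TGANTCA (AP-1), CACGTG (E-box), GGGCGG (GC box), CCAAT (the box bound by NF-Y) and TATAAA (the TATA box, bound by TBP).
PIK3R1: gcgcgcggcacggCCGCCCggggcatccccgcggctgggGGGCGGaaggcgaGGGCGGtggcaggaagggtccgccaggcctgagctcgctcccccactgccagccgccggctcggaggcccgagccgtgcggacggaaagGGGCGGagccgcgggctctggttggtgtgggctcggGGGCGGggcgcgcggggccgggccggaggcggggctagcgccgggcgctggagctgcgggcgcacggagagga
ELK3: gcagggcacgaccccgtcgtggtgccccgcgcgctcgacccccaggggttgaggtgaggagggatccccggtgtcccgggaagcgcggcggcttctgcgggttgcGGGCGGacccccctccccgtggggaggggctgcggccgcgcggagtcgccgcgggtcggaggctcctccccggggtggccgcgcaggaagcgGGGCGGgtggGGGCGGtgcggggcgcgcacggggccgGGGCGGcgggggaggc
TNRC18: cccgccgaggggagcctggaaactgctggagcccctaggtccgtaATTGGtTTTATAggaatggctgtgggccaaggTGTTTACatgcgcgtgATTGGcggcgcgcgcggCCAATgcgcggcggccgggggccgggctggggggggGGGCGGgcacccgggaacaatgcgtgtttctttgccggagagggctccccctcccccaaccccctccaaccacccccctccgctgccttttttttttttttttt
DNAJC12: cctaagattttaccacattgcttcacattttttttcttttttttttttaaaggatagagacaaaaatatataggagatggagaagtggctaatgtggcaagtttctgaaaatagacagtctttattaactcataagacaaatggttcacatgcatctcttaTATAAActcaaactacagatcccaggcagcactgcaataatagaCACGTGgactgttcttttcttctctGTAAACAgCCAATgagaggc
ZBTB21: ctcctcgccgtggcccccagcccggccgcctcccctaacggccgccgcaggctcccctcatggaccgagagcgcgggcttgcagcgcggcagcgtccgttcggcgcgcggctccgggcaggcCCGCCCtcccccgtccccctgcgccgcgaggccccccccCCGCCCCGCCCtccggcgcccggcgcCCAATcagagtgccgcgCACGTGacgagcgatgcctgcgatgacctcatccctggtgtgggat
PIK3R1 and ELK3 held GC boxes alone, 5 and 4 of them, in windows of 81.6% and 82% G and C. DNAJC12, at 34.8% G and C, held 1 FOXA match, 1 E-box, 1 CCAAT box and 1 TATA box. TNRC18 held 3 CCAAT boxes with 1 match each to the FOXA, GC box and TATA motifs, and ZBTB21 held 3 GC boxes, 1 E-box and 1 CCAAT box. ACANNNTGT was in none of these 5 windows.

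Promoter windows were found by symbol for 101 of the 277 genes whose 5′ end lay within 5 kb of these peaks, and for 27 of those whose 5′ end lay inside one. ACANNNTGT was in 9 of the 101 windows (8.91%) and in 4.68% of all 27305 RefSeq windows of the same length. TGTTTAC was in 6 (5.94%, against 2.98% of all) and GGGCGG in 60 (59.4%, against 42.3%). The TATA box was in 17 (16.8%, against 11.1%) and the box bound by NF-Y in 38 (37.6%, against 33.0%). Lower than among all windows were the E-box, in 2 (1.98%, against 6.49%), the motif of GATA factors, in 8 (7.92%, against 9.37%), and that of AP-1, in 6 (5.94%, against 6.60%). In the 27 windows of covered 5′ ends, TGTTTAC was in 4 (14.8%), ACANNNTGT in 3 and the AP-1 motif in 0. The motif of GATA factors was in 4 of them (14.8%) and the E-box in 2 (7.41%), both above their shares of all windows. GGGCGG was in 16 (59.3%), the box bound by NF-Y in 13 (48.1%) and the TATA box in 5 (18.5%). The median G and C content was 60.8% for the 101 windows and 58% for all. These matches describe the letters of the windows only.

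The peaks listed only before hormone lay mostly away from promoters. The 49 peaks over a 5′ end were 3.02% of them (95% Wilson interval 2.30 to 3.98%), and a further 175 (10.8%) came within 5 kb of one. Another 791 (48.8%) were centred in introns, 43 (2.65%) in exons and 562 (34.7%) between genes. Among the 668 kept peaks, 135 (20.2%, interval 17.3 to 23.4%) covered a 5′ end, as did 16.5% of the peaks gained at 30 min. The median distance to a 5′ end was 29758 bp for the peaks listed only before hormone, 14625.5 bp for kept ones and 13441.5 bp for gained ones.

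**Figure D1:**
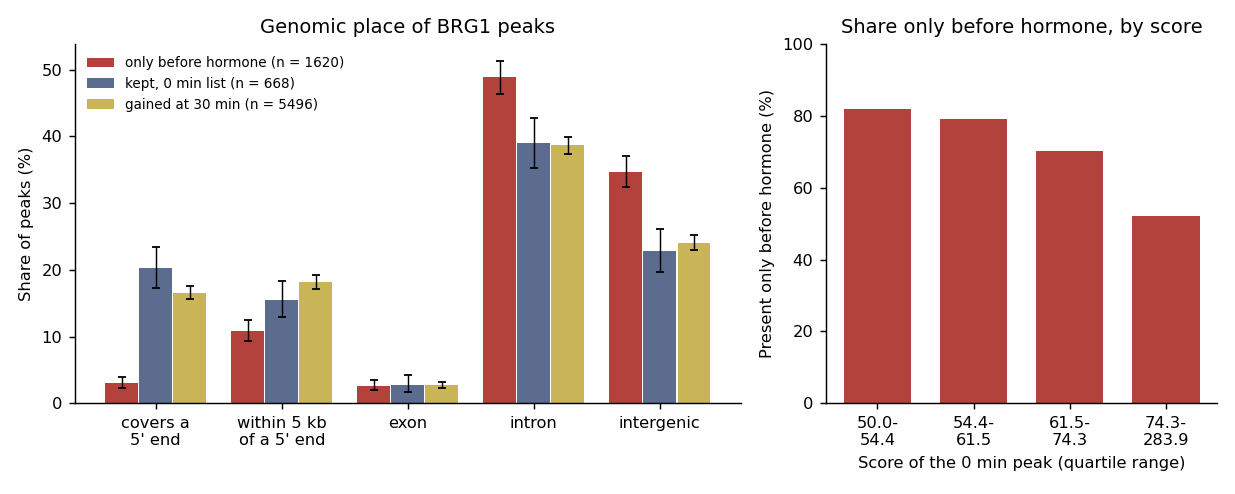
Left, share of peaks (%) in each genomic place for peaks listed only before hormone, kept peaks and peaks gained at 30 min, with 95% Wilson intervals as bars. Right, share (%) of 0 min peaks that were listed only before hormone in each quartile of the score. Peaks only before hormone covered a 5′ end in 3.02% of cases against 20.2% of kept peaks, and their share fell from 81.8% in the lowest quartile to 52.1% in the highest.

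They were also lower and narrower than the kept peaks. The authors' peak score, which starts at 50 in both lists, had a median of 59.4 here and 70.1 in the kept peaks, with highest values of 271 and 284. Only 62 (3.83%) scored 100 or more, against 119 kept peaks (17.8%). By quartile of the score, 81.8%, 79.0%, 70.3% and 52.1% of the 0 min peaks were listed only before hormone. The median width was 1040 bp, against 1865.5 bp in kept peaks, and the widest was 8054 bp. Together these regions spanned 2.36 Mb.

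Most of them had no 30 min peak in the vicinity. The nearest 30 min peak was a median of 46303.5 bp away, 63 (3.89%) had one within 1 kb and 206 (12.7%) within 5 kb. The 5 peaks just inside the rule had a 30 min peak at 31 to 98 bp, and their scores ran from 54.95 to 66.49. The 5 just outside it shared 4 to 28 bp, with scores from 59.57 to 82.72. One of the 5 just inside, chr12:54378301-54382597, lay over the 5′ end of HOXC10, with a 30 min peak at 98 bp.

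The 10 highest-scoring peaks lay largely inside long genes. The first, chr12:116700322-116707027 (score 271, 6706 bp wide), was in an intron of MED13L, a subunit of the Mediator kinase module, with a 30 min peak 2164 bp away. The second, chr10:9236411-9241224 (238), was intergenic, 76572 bp from the 5′ end of LINC00709. The next pair, chr3:173196714-173201393 (228) and chr3:173602547-173608407 (181), were both in introns of NLGN1, which encodes the synaptic adhesion protein neuroligin 1. They were followed by peaks in introns of FXR1, an RNA-binding protein (164), and of SATB1-AS1 (160). Only the seventh, chr4:15005303-15006785 (153), came within 5 kb of a 5′ end: it began 1005 bp downstream of the start of CPEB2, a translation regulator, and the nearest 30 min peak was 649400 bp away. The others were intergenic near TMEM26 and CBX1P1 (144 and 139) and in an intron of CADM2, a cell adhesion gene (137). The distance to the nearest 30 min peak ran from 258 bp (FXR1) to 7947298 bp (the peak near CBX1P1).

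The regions were unevenly spread over the genome. Chromosome 3 held 485 of them (29.9%) on 6.52% of the annotated length, or 24.5 per 10 Mb. Of these, 409 lay beyond 150 Mb, a stretch with 1.58% of the annotated length, and 151 between 170 and 180 Mb. Chromosome 12 held 183 (11.3%, on 4.41% of the length), chromosome 8 held 136 and chromosome 1 held 133. Chromosomes 2, 13, 16, 18, 19, 20, 22 and X together held 42 (2.59%) on 28.2% of the length, against 13.5% of gained peaks. Kept peaks shared the excess on the distal part of chromosome 3 (203 of 668, 30.4%), whereas 8.75% of gained peaks lay there. Within that stretch 66.8% of 0 min peaks were listed only before hormone, and elsewhere 72.3%. The peaks there were wide, with a median of 2335 bp against 922 bp elsewhere, and their median score was 62.41 against 58.7. An input library was not analysed here, and the part of DNA copy number in these counts was not tested.

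**Figure D2:**
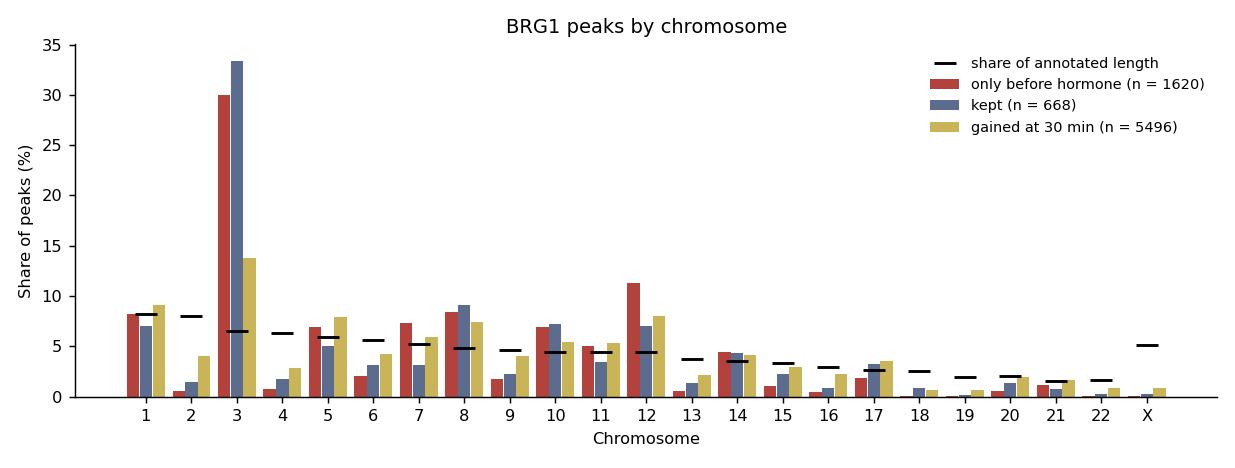
Share of peaks (%) on each chromosome for peaks listed only before hormone, kept peaks and peaks gained at 30 min. Black dashes mark each chromosome's share of the annotated length. Chromosome 3 holds 29.9% of the peaks only before hormone on 6.52% of the length.

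Many of these regions fell in a few long genes. NAALADL2, a large gene of the glutamate carboxypeptidase-like family on chromosome 3 (174156363 to 175523428), held 43 of them over 1367 kb, beside 29 kept and 27 gained peaks. NLGN1 held 21, the noncoding SOX2-OT, in which the pluripotency gene SOX2 lies, 17, CADM2 16 and LINC01322 11. DGKB and CTNNA3 held 9 each, and MECOM and PRKG1 8 each. MIPOL1, the neighbour of FOXA1 on chromosome 14, held 7. In LINC01322, CTNNA3 and PRKG1 none of the 0 min peaks was kept. The median distance from such a region to the nearest other one was 102164 bp.

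Several of those hosts fell with hormone. NAALADL2 stood at 23.04 and 23.08 CPM in si-control at 0 h and at 15.8 and 14.3 at 6 h, a fall of 0.62 (log2, SE 0.08, edgeR adjusted p = 1.49e-05). In si-BRG1 it was 30.8 and 30.9 CPM at 0 h, higher than in si-control by 0.42 (SE 0.08, edgeR adjusted p = 0.000953), and 25.5 and 24.2 at 6 h. The 4 groups of 2 libraries did not overlap. MECOM, which encodes the zinc finger factor EVI1, dropped from 18.9 and 17.8 to 3.10 and 3.41 CPM in si-control (log2 change -2.49, SE 0.12, edgeR adjusted p = 5.71e-11), and from 15.3 and 15.1 to 4.08 and 3.15 in si-BRG1. The difference of the 2 responses was 0.41 (adjusted p = 0.178 in edgeR), so it did not pass. PRKG1, a cGMP-dependent kinase gene, MIPOL1 and FGF12, a fibroblast growth factor family member that stays inside the cell, fell by 0.87, 0.65 and 0.53 in si-control. NLGN1, SOX2-OT, CADM2, DGKB and CTNNA3 were below 1 CPM in every si-control and si-BRG1 library, and LINC01322 was too low to test.

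Over all genes with the centre of such a peak inside them, 680 in number, 507 were tested. In si-control 195 of these fell with hormone (38.5%) and 65 rose (12.8%), against 18.1% and 19.5% of all genes tested. Gene length moved with this count: of all tested genes of at least 100 kb, 30.8% fell, and of those with no BRG1 peak inside 27.8%, against 15.6% of shorter genes. Among hosts the share that fell was 39.4% of the 317 of at least 100 kb and 36.8% of the 190 shorter ones. Hosts of kept peaks fell in 39.5% of 342 cases and hosts of gained peaks in 28.8% of 2322. The part of gene length in these counts was not tested further.

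The knockdown was checked first. SMARCA4 stood at 76.6 and 65.7 CPM in si-control and at 4.99 and 5.90 in si-BRG1 at 0 h, a fall of 3.71 (log2, SE 0.22, edgeR adjusted p = 1.32e-08, 13.1-fold). At 6 h it was 61.7 and 63.0 CPM in si-control and 2.26 and 5.66 in si-BRG1. The si-CBX3 and si-FOXA1 libraries, which enter the filter on low counts, the mean log-CPM and the fit's estimate of the spread but neither side of a comparison, held 117 to 187 CPM. Library totals ran from 50017255 to 74374857 fragments. The 9 luminal markers (among them ESR1, PGR, KRT8 and EPCAM) summed to 6863 to 13694 CPM in the 16 libraries, and the leukocyte markers to at most 1.91 and the endothelial ones to at most 1.05. Mesenchymal markers summed to 30.5 to 62.4 CPM, with COL3A1 and PDGFRB under 1 CPM throughout. The labels do not say that the replicates came from separate cultures. The p-values rest on the spread of the sampled libraries alone, which may be technical. Replicates were not equally close. The chi-square per degree of freedom between them was 57.14 in si-BRG1 at 6 h and 28.04 in si-control at 0 h. It was 7.15 in si-BRG1 at 0 h, 8.83 in si-control at 6 h and 4.22 to 22.05 in the si-CBX3 and si-FOXA1 groups. The fit shares its estimate of the spread over all groups. The effect of this on the SE and adjusted p of comparisons with the looser groups was not tested. In bulk RNA fewer cells of a kind and less RNA per cell cannot be told apart.

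Within 5 kb of 224 of the regions lay the 5′ ends of 277 genes, of which 120 were expressed enough to test (43.3%). Of the 157 others, 78 had no count in any of the 16 siRNA libraries. In si-control, hormone lowered 42 of the 120 (35.0%) and raised 13 (10.8%). Over all 18806 genes 18.1% fell and 19.5% rose (37.6% called in either direction). The median change was -0.25 near these peaks and -0.02 over all genes. Near kept peaks 76 of 240 genes fell (31.7%) and 43 rose (17.9%), and near gained peaks 439 of 1731 fell (25.4%) and 479 rose (27.7%). No test compares these lists, and 30 of the 277 genes also had a 30 min peak within 5 kb. Without those 30, 34 of 101 tested genes fell (33.7%) and 11 rose.

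Expression level, length and chromosome were set beside these counts. The tested genes near the peaks were more abundant, with a median log-CPM of 5.10 against 3.41 over all genes. Among genes whose mean log-CPM was 3 or more, 35 of 76 near the peaks fell (46.1%) and 22.1% of all 9997 did. At that level 64 of 178 genes near kept peaks fell (36.0%), and 360 of 1200 near gained ones (30%). Of genes under 100 kb, 31 of 95 near the peaks fell (32.6%, against 15.6% of all), and of longer ones 11 of 25 (44%, against 30.8%). On chromosome 3 beyond 150 Mb 6 of 11 fell (54.5%, against 22.6% of all 292 tested there), and elsewhere 36 of 109 (33.0%). Where the 5′ end lay inside the peak 15 of 40 fell (37.5%), and where it lay outside 27 of 80 (33.8%).

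**Figure D3:**
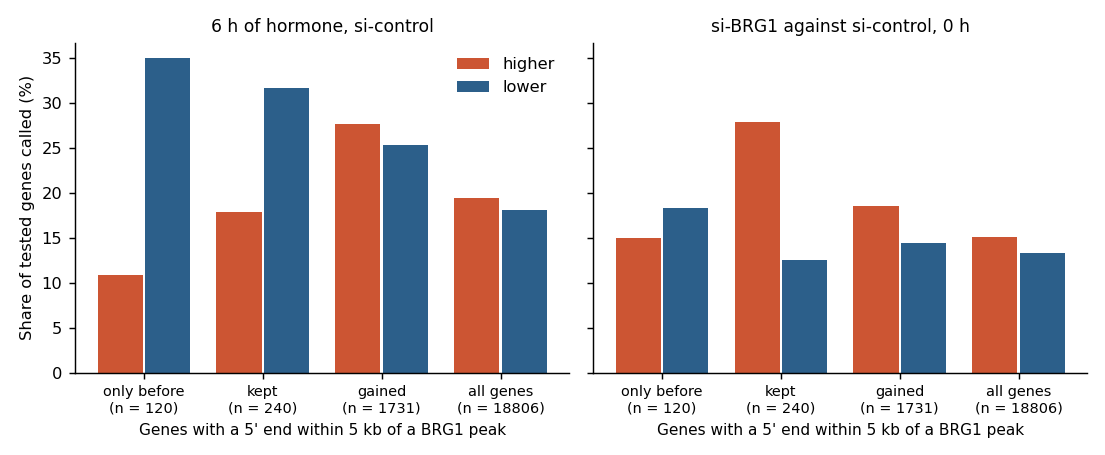
Share (%) of tested genes called higher or lower by edgeR after 6 h of hormone in si-control cells (left) and in si-BRG1 against si-control at 0 h (right), for genes with a 5′ end within 5 kb of a peak listed only before hormone, a kept peak or a gained peak, and for all genes tested. Near peaks listed only before hormone 35.0% fell and 10.8% rose with hormone. After si-BRG1, 15% were higher and 18.3% lower there.

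Among the genes that rose, IL20RA, a receptor subunit for cytokines of the interleukin 10 family, changed most. It stood at 32.2 and 35.6 CPM in si-control at 0 h and at 359 and 364 at 6 h, a rise of 3.41 (SE 0.07, edgeR adjusted p = 3.82e-15). In si-BRG1 it went from 40.5 and 38.8 to 490 and 444 CPM, and without siRNA from 4.53 to 42.6 RPKM. Its peak, chr6:137364695-137365929 (score 59.4), began 369 bp inside the gene, and the nearest 30 min peak was 493108 bp away. Every 6 h library lay above every 0 h library under either siRNA.

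RIPK4, a kinase gene of epithelial differentiation, rose by 1.26 (SE 0.08), from 39.6 and 39.4 to 88.36 and 100.6 CPM in si-control. Its peak had a 30 min peak only 277 bp away. ALDH1A3, which makes retinoic acid and marks luminal progenitors, rose by 0.95 (SE 0.06), from 64.9 and 62.1 to 126 and 119 CPM. It was lower in si-BRG1 before hormone, at 42.2 and 42.1 CPM (-0.59, SE 0.06, edgeR adjusted p = 5.23e-06), and reached 73.3 and 74.8 at 6 h. The remaining 6 named rises were smaller, from 0.28 to 0.51: ACSL3 (a fatty acyl-CoA ligase), ABCC5 (an organic anion exporter), PIK3R1 (the regulatory subunit of PI3 kinase), TRAF3IP2 (an interleukin 17 signalling adaptor), REPS1 (an endocytosis protein) and TM2D2. The peak of TM2D2 had a 30 min peak 527 bp away. Outside the naming rule, chosen after their values were seen, KCNG3, a modulatory potassium channel subunit with its 5′ end in a peak, rose by 2.59 from 0.235 and 0.4955 to 1.83 and 2.52 CPM, and CLRN1-AS1 was called higher from values too low to give a fold.

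The falls were more frequent and among genes whose mean log-CPM was 1 or more none exceeded the 1.36 of TNFSF10. That gene, which encodes the death ligand TRAIL, went from 127 and 89.5 CPM to 43.8 and 40.3 in si-control (SE 0.12, edgeR adjusted p = 1.04e-07). In si-BRG1 it was lower before hormone, at 61.5 and 55.3 CPM (-0.89, SE 0.12, edgeR adjusted p = 4.1e-05), and fell to 18.8 and 19.7. Its peak was chr3:172231776-172238620, 6845 bp wide with a score of 52.9. ELK3, an ETS factor that can repress serum response genes, fell from 9.68 and 11.2 to 4.29 and 4.34 CPM (-1.27, SE 0.10, edgeR adjusted p = 2.21e-08) and from 12.02 and 12.49 to 4.35 and 4.56 in si-BRG1. Its 5′ end lay in chr12:96587756-96588873 (score 77.2), 202890 bp from any 30 min peak. In both genes the 0 h and 6 h libraries were apart under either siRNA.

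SLC40A1, the iron exporter ferroportin, was the most abundant of the named falls. It went from 1780 and 1927 to 979 and 806 CPM in si-control (-1.05, SE 0.10, edgeR adjusted p = 1.61e-07) and from 1922 and 1956 to 1048 and 840 in si-BRG1 (difference 0.02, SE 0.14). DIP2B fell from 470 and 462 to 222 and 215 CPM (-1.09, SE 0.06), and ZMAT3, a p53 target gene, from 97.7 and 147 to 59.6 and 54.1 (-1.11, SE 0.14). The replicates of DIP2B lay close together, whereas those of ZMAT3 at 0 h were far apart, though both were above the 6 h libraries.

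A single peak, chr6:16759538-16761315 (score 74.6, 1778 bp), lay near 3 of the named falls. It lies just inside the start of ATXN1, a transcriptional co-repressor gene, which fell from 76.5 and 79.4 to 39.6 and 36.3 CPM (-1.04, SE 0.08). On the other strand ATXN1-AS1 fell from 4.42 and 4.82 to 2.30 and 2.77 CPM and ENSG00000272341 from 8.38 and 9.79 to 3.65 and 3.41. Counting used strand, per the file headers, but the 3 genes share 1 region and are not 3 separate cases. ATXN1 was higher in si-BRG1 before hormone, at 119 and 126 CPM (0.65, SE 0.08, edgeR adjusted p = 2.41e-05), and fell to 64.7 and 76.2. SIX4, a homeobox gene, fell from 23.5 and 26.7 to 14.6 and 14.7 CPM (-0.78, SE 0.10), and GASK1B, from 142 and 191 to 110 and 86.7 (-0.76, SE 0.12). The peak of GASK1B had a 30 min peak 1363 bp away.

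**Figure D4:**
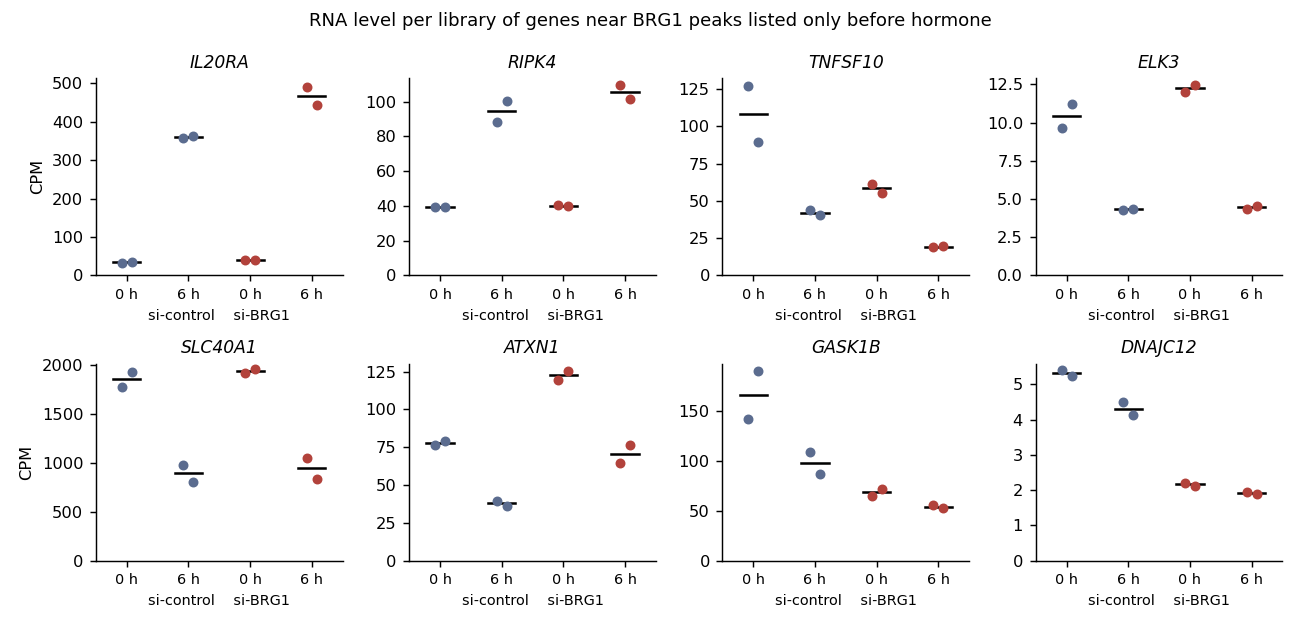
RNA level (CPM) in each library of 8 genes near peaks listed only before hormone, at 0 h and 6 h in si-control (blue) and si-BRG1 (red). Points are libraries, 2 per group, and lines are their means. IL20RA and RIPK4 rise at 6 h under both siRNAs, TNFSF10, ELK3, SLC40A1 and ATXN1 fall, and DNAJC12 differs mainly between the siRNAs.

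The single libraries without siRNA, which allow no test, gave the same sign for 11 of 12 rises and 27 of 39 falls with a value (69.2%). Over all genes the shares were 88.0% of rises and 69.1% of falls. SLC40A1 went from 75.7 to 27.5 RPKM there, ZMAT3 from 7.22 to 2.16 and TNFSF10 from 5.94 to 2.65. ELK3 went the other way, from 0.621 to 0.912 RPKM, as did SIX4, from 1.35 to 2.08, and GASK1B slightly, from 10.3 to 10.6.

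Before hormone, si-BRG1 changed 40 of the 120 genes (33.3%, against 28.5% of all genes tested): 18 were higher (15%, against 15.1%) and 22 lower (18.3%, against 13.4%). Near kept peaks 67 of 240 were higher (27.9%) and 30 lower (12.5%). The count of higher genes was 11 without si-BRG1 0 h replicate 2. Among the higher genes were ACTA2, smooth muscle actin, from 4.47 and 3.96 CPM in si-control to 8.76 and 8.53 (1.03, SE 0.11, edgeR adjusted p = 4.18e-06), and CABLES2, a CDK-binding protein gene, from 6.74 and 5.01 to 9.90 and 11.1 (0.83, SE 0.15). SMC4, a condensin subunit, was higher by 0.74, TRPS1, a GATA-type repressor of luminal cells, by 0.66, and HOXC10 by 0.44. TRPS1 stood at 767 and 792 against 1214 and 1252 CPM, and its peak had a 30 min peak 2049 bp away. TNRC18, whose 5′ end lay in the widest peak of any 5′ end (chr7:5461809-5469490, 7682 bp), was higher by 0.69 (SE 0.18, edgeR adjusted p = 0.00867), but not without si-BRG1 0 h replicate 2 (adjusted p = 0.0541 in edgeR), without si-control 0 h replicate 2 (0.0977) or with only the si-control and si-BRG1 libraries (0.0525).

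Lower in si-BRG1 were DNAJC12, a co-chaperone gene, at 5.41 and 5.25 CPM in si-control and 2.195 and 2.13 in si-BRG1 (-1.30, SE 0.14, edgeR adjusted p = 6.62e-06), and GASK1B, at 142 and 191 against 65.4 and 71.8 (-1.28, SE 0.12). In DNAJC12 the groups were far apart, and hormone moved it little, to 4.495 and 4.134 CPM in si-control. ABCC5 was lower (log2 change -0.62, SE 0.06), ETNK1, an ethanolamine kinase gene, at -0.51 and ATP6V1H, a subunit of the vacuolar proton pump, at -0.49. ETNK1 lost its call without si-control 0 h replicate 2 (adjusted p = 0.0797 in edgeR). ENSG00000227615, at -0.58, lost it without that library (0.326) and without si-BRG1 0 h replicate 1 (0.247). CPEB2, beside the seventh highest peak, changed in neither comparison at the threshold: it stood at 14.79 and 16.03 CPM in si-control at 0 h, 12.6 and 12.1 at 6 h (adjusted p = 0.0571 in edgeR) and 12.9 and 14.9 in si-BRG1. Its divergent transcript CPEB2-DT had at most 5 counts in any library.

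Some genes were called in both comparisons. Of the 120, 11 fell with hormone and were lower in si-BRG1 (567 of all 18806 genes), and 8 fell and were higher (719). A further 3 rose and were higher (646), and 4 rose and were lower (620). TNFSF10, GASK1B, DIP2B, ETNK1, ZBTB21 and ATP6V1H were lower under either change. ATXN1, SMC4, TRPS1 and HOXC10 fell with hormone and were higher in si-BRG1. IL20RA and REPS1 rose and were higher, whereas ALDH1A3, ABCC5 and TM2D2 rose and were lower. Both comparisons use the si-control 0 h libraries, so the values are set side by side only.

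With BRG1 depleted, hormone lowered 34 of the 120 genes (28.3%, against 17.1% of all genes tested) and raised 21 (17.5%, against 18.6%). Of the 42 genes that fell in si-control, 27 also fell in si-BRG1 (64.3% of the first and 79.4% of the second set), and over all genes 57.3% of the si-control falls were called again. Of the 13 rises 12 were called again (92.3%, against 67.2% of all rises), and these 12 were 57.1% of the 21 rises in si-BRG1 (against 70.5%). The fall was smaller in si-BRG1 for 34 of the 42 genes (81.0%), and for 76.4% of all genes that fell in si-control. The difference of the responses itself passed for 5 of the 120 (4.17%, against 5.22% of all genes tested). In all 5 the change in si-BRG1 was the more positive (against 1.49% of all genes), and 0 were lower (3.72% of all genes) by edgeR or by DESeq2. At an unadjusted p below 0.05 in edgeR, 25 of the 120 were higher and 3 lower, against 1771 and 2162 of all 18806 genes. The difference was above 0 in 83 of the 120 (69.2%) and in 54.0% of all genes. More of the 120 fell in si-control (35.0%, against 18.1% of all genes), and falls there were mostly smaller in si-BRG1 over all genes too. The part of this make-up in the direction of the differences was not tested. Some settings called genes in the other direction too: 2 of 8 were lower at 10 kb, 1 of 10 with no filter on low counts, 2 of 19 without si-BRG1 6 h replicate 1 and 1 of 7 without si-BRG1 6 h replicate 2.

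**Figure D5:**
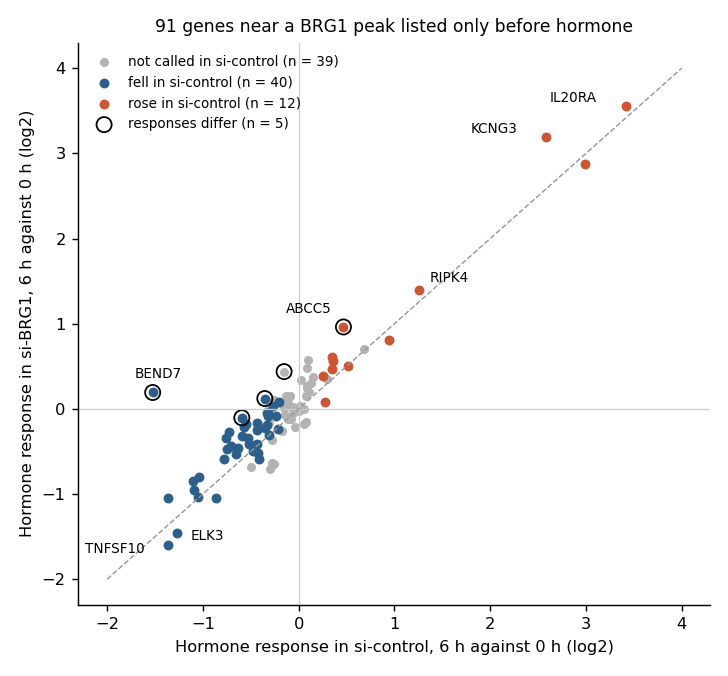
Hormone response (log2, 6 h against 0 h) in si-BRG1 against that in si-control for 91 tested genes near peaks listed only before hormone, those whose mean log-CPM is 0 or more, and 29 genes below that are not drawn. Colours give the call in si-control, circles the 5 genes whose responses differ, and the dashed line equal responses. IL20RA and KCNG3 lie near the line at the upper right, and 33 of the 40 falls drawn lie above it. These falls were picked by their call in si-control, and 76.4% of all genes that fell there had a smaller fall in si-BRG1.

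ZBTB21, a zinc finger repressor gene with its 5′ end in chr21:43430388-43431673 (score 69.3), went from 77.2 and 88.8 to 56.3 and 53.7 CPM in si-control and from 61.3 and 64.4 to 59.4 and 57.5 in si-BRG1 (difference 0.49, SE 0.11, edgeR adjusted p = 0.0181). VPS54, a subunit of an endosome-to-Golgi tethering complex, went from 53.1 and 47.6 to 41.5 and 37.3 CPM and from 47.3 and 44.6 to 47.2 and 52.8 (difference 0.48, SE 0.12, edgeR adjusted p = 0.0294). Both fell in si-control and their 0 h and 6 h levels in si-BRG1 differed by less. ABCC5 rose under both siRNAs, from 287 and 258 to 384 and 370 CPM and from 179 and 175 to 339 and 350 in si-BRG1, where it started lower (difference 0.49, SE 0.09, edgeR adjusted p = 0.0069). GASK1B-AS1, beside GASK1B and the same peak, stood at 25.99 and 23.67 CPM before and 22.4 and 22.3 after hormone in si-control. It rose from 17.4 and 18.4 to 23.2 and 25.2 in si-BRG1 (difference 0.59, SE 0.11, edgeR adjusted p = 0.00735). The fifth, BEND7, was named after its values were seen, since its level of 0.190 to 0.702 CPM is under the naming rule (difference 1.72, SE 0.47, edgeR adjusted p = 0.046).

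None of these 5 calls held in a fit of the 8 si-control and si-BRG1 libraries alone, where the lowest adjusted p near these peaks was 0.0686 (edgeR, 114 genes). At an unadjusted p below 0.05 in that edgeR fit, 19 of the 114 were higher and 1 lower, against 1271 and 1630 of all 17180 genes in it. The larger share of si-control falls near these peaks bears on this count as well, and its part was not tested. The differences themselves were of similar size there: 0.51 for ABCC5 (SE 0.11), 0.60 for GASK1B-AS1 (SE 0.13), 0.50 for ZBTB21 (SE 0.13) and 0.49 for VPS54 (SE 0.14). Both fits take these differences from the same 8 libraries, so their size could hardly change and lends the calls no weight. The count was 1 without si-BRG1 0 h replicate 1, 19 without si-BRG1 6 h replicate 1, 10 without si-control 0 h replicate 1, 3 without si-control 0 h replicate 2 and 2 without si-control 6 h replicate 2. Over all genes that fit called 21 differences higher and 46 lower.

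Lists of the pathways around this experiment were set beside the peaks. Of 147 genes in 6 lists (SWI/SNF subunits, immediate-early genes, linker histones and HP1 proteins, luminal transcription factors and markers, oestrogen receptor targets, and progestin- and glucocorticoid-induced genes) 0 were near a peak listed only before hormone, 13 near a kept one and 38 near a gained one. Over all genes tested these shares were 0.638%, 1.28% and 9.20%, so a list of this size would hold about 1 gene near a peak listed only before hormone and the 0 is not a result about the lists. Of the 33 progestin- and glucocorticoid-induced genes tested, 21 rose and 4 fell with hormone in si-control (median change 2.02), and of 26 SWI/SNF subunits 6 rose and 6 fell (median 0.0029), with 9 higher and 1 lower, SMARCA4, in si-BRG1 at 0 h. Of 27 luminal genes 7 rose and 15 fell, and of 31 immediate-early genes 20 rose and 2 fell.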

How the data were processed

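Gene counts are fragments per gene deposited by the authors without normalization, made per the file headers with featureCounts 1.4.6-p2 in reverse-stranded mode on GENCODE models of hg19. The submitters' processing notes also list Trimmomatic and STAR, and Bowtie 1.0.0 and HOMER for ChIP-seq. Each peak list holds a score per peak, as deposited by the authors, from 1 library. The sources used here give neither the caller's settings nor an input library. Peak names run to 2316 and 6205, and the names without a row were not analysed here. A 30 min peak among them could make a 0 min peak count as unmatched. The libraries without siRNA hold estimated reads and RPKM values per transcript, deposited by the authors and summed here per gene. The si-CBX3 and si-FOXA1 files were counted with 1 thread and the others with 8, per the file headers.

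Members and gene lists were chosen with earlier results of these data known. Peaks were placed by overlap with a 5 prime end, then distance under 5 kb, then the centre's position in an exon, intron or neither. Counts of the 16 siRNA libraries were fitted with edgeR 4.0.16 in R 4.3.3 (filterByExpr over 8 groups, TMM, 1 quasi-likelihood fit, 8 residual degrees of freedom, two-sided, tested on simulated data). DESeq2 1.42.0 was an alternative, beside other scaling, filters, distances, libraries and a replicate block. The samples were not treated as paired. Named genes are SMARCA4, those within 5 kb of the 10 highest-scoring members, the 10 largest hormone rises and falls, the 8 largest each way after si-BRG1 and up to 5 each way in the difference, among calls whose mean log-CPM was 1 or more and, except for the difference, groups that do not overlap. A gene that meets this rule is not reported here. Wilson intervals cover counting error only.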

Additional observations from a re-analysis of the deposited data

Results flagged for a closer look

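The difference of the hormone response between si-BRG1 and si-control passed the interaction test (edgeR, Benjamini-Hochberg adjusted p below 0.05) for 5 genes near peaks listed only before hormone. It was 0.48 for VPS54, 0.49 for ZBTB21, 0.49 for ABCC5, 0.59 for GASK1B-AS1 and 1.72 for BEND7, on the log2 scale. VPS54 and GASK1B-AS1 also had a 30 min peak within 5 kb of their 5′ end.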

How the results depend on the processing

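Limits first: each BRG1 list is 1 library without a stated depth, each RNA group has 2 libraries, and 157 of the 277 genes near the peaks were too low to test. Of the 2288 peaks at 0 min, 1733 were listed only before hormone when the overlap had to reach at least 50% of the peak, 1557 when a 30 min peak within 1 kb counted, 1801 when only 30 min peaks at or above their median score counted, and 700 of 1144 among 0 min peaks at or above theirs. Taking 1 kb as the distance left 73 genes, of which hormone changed 35 (26 lower) in si-control and 36 in si-BRG1, si-BRG1 changed 22 (9 lower) and 3 responses differed. At 10 kb, 23 of 181 genes rose with hormone, 31 were higher in si-BRG1 and 8 responses differed. The 5 differing responses became 10 with DESeq2, 10 with no filter on low counts, 0 with only the si-control and si-BRG1 libraries, and 3 among genes with no 30 min peak within 5 kb, a choice made after seeing the data. Leaving out each of the 8 si-control and si-BRG1 libraries in turn gave 48 to 61 hormone calls in si-control (13 to 14 higher, 35 to 47 lower), 28 to 48 calls for si-BRG1 (11 to 24 higher, 15 to 24 lower), 40 to 57 hormone calls in si-BRG1 and 1 to 19 differing responses. Where such a fit leaves 1 library in a group, that library is assumed to vary like the others. The cause of these changes was not tested, beyond the number of genes or samples that each alternative changes. With the replicate number as a block the counts were 56, 40, 51 and 5 and no call of a named gene changed. Deviations of same-numbered libraries had r = -0.07 across genes between si-control at 0 h and 6 h, 0.25 between si-BRG1 at 0 h and 6 h and 0.19 between si-BRG1 and si-control at 0 h. These differ in sign and no label ties the numbers to a shared batch, so they were not taken as pairs. For the named genes, 514 of 533 values under an alternative kept their direction and call, and 19 lost the call. Most of these genes were picked by their calls in these same data. Some of the alternatives leave out a library on neither side of the comparison, where its size could hardly change. The count therefore overstates how well the calls hold.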

Other observations

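Distances to peaks listed only before hormone were measured for the genes with the strongest falls in si-control, none of which had one within 5 kb of its 5′ end. Among the 10 largest falls where the mean log-CPM was 3 or more, the nearest such peak was 20.7 kb away for SOX2, a stem cell factor (log2 change -3.12), 57.0 kb for AMIGO2, an adhesion protein gene (-3.60), and 86.3 kb for MECOM (-2.49), and 441 kb or more for HDAC9, VAV3, LMCD1, PLK2, SSTR2, LIN28A and IL1R1. MECOM held 8 such peaks inside the gene and HDAC9 held 3. Of all genes tested 0.638% have such a peak within 5 kb, so 0 of 10 is no departure from the rest. These genes were picked by the size of their fall, so their distances are a description.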
